A study of Mus musculus with 22 samples.

Results

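The genes described here encode the proteins of the cytosolic ribosome. They were taken from the gene table by name, as protein-coding genes called Rpl or Rps followed by a digit, together with Rpsa, Rplp0, Rplp1 and Rplp2, without the Rps6k kinases and without names marked as pseudogenes (-ps). This rule was met by 86 of 54532 genes, and 84 of them were among the 16638 genes that passed the filter on low counts. The other members were the paralogs Rpl39l, with 0 to 15 counts per library, and Rpl10l, with 0 counts in every library. Among the 84 genes 43 encode proteins of the large subunit, 31 proteins of the small subunit, 3 proteins of the stalk and 5 paralogs or copies of those. Rpl7l1 and Rps19bp1 met the rule by name although they encode a ribosome assembly factor and a protein that binds Rps19. Fau and Rack1, which encode ribosomal proteins under other names, are outside the rule and are given separately.

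Ribosomal proteins and ribosomal RNA form the small subunit, which decodes the messenger, and the large subunit, which joins amino acids. Most of the proteins are present once in each ribosome, and their messengers are among the most abundant in most cell types. Many of these messengers start with a cytosine followed by further pyrimidines, the terminal oligopyrimidine (TOP) motif, through which mTORC1 and the RNA-binding protein LARP1 control their translation and stability.

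The 22 libraries were made with a stranded mRNA kit from lungs of young male C57BL6/j mice held in normoxia or hypoxia. For 8 days the mice received vehicle or ABT-263 (navitoclax), an inhibitor of anti-apoptotic BCL-2 family proteins used to remove senescent cells, at 50 mg/kg per day. The controls, normoxia with vehicle, had 5 libraries, hypoxia with ABT-263 also had 5, and normoxia with ABT-263 and hypoxia with vehicle had 6 each. For replicate 1 of every group other than the controls, the treatment in the title is not the one in the sample's characteristics. Groups follow the titles, and counts without these 3 libraries are given. The labels do not say that the libraries of a group came from separate experiments, so p-values measure the spread between these libraries.

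Library totals lay between 11509007 and 15744193 counts. Surfactant and other alveolar type 2 genes were high in every library (mean of 11 genes 9.32 to 9.87 log2 CPM, the counts scaled to a common library total). Mitochondrial genes took 3.67% to 6.60% of counts. Markers of other cell types moved with oxygen, and their values close the account. In bulk tissue, fewer cells of a type and less RNA per cell cannot be told apart.

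Sequence around the start, where the TOP motif lies, is shown for members that passed in both hypoxia comparisons and for members that passed in neither. RefSeq starts on GRCm38.p6 were found for 66 of the 86 members. Each line gives 15 bases on either side of a RefSeq start, read along the gene, with the longest run of a C followed by at least 5 pyrimidines in capitals. The first 3 genes rose in hypoxia with either treatment and carry a long run, at chr14:18270972-18271001, minus strand, chr2:39005117-39005146, minus strand and chr17:33955651-33955680, minus strand.
Rpl15: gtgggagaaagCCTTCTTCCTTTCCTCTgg
Rpl35: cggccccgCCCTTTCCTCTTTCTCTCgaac
Rps18: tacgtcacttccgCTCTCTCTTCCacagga
The next 3 also rose with either treatment and have no such run in this window, at chr9:44407699-44407728, plus strand, chr10:128549154-128549183, minus strand and chr12:28635939-28635968, minus strand.
Rps25: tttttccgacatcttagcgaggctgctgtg
Rpl41: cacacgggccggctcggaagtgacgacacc
Rps7: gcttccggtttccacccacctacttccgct
The last 4 passed in neither hypoxia comparison and do carry a run, at chr7:109519180-109519209, plus strand, chr7:4792950-4792979, plus strand, chr9:64173372-64173401, plus strand and chr10:128626492-128626521, minus strand.
Rpl27a: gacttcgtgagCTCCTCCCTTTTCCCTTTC
Rpl28: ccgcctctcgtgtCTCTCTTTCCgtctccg
Rpl4: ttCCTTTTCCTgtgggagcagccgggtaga
Rps26: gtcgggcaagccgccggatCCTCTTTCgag
The run is thus found among members that rose and among members that did not. With vehicle and with ABT-263, the log2 fold changes in hypoxia were 0.26 ± 0.08 and 0.36 ± 0.08 (SE) for Rpl15, and 0.13 ± 0.11 and 0.25 ± 0.11 for Rpl27a. Rps7, with no run in its window, stood at 0.38 ± 0.11 and 0.49 ± 0.11. A run outside the window is not counted, so its absence here does not show that a messenger lacks the TOP motif. For all genes shown except Rps7 and Rpl4, with a run or without, the window lies inside the annotated gene and not at its outer start.

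Across all RefSeq starts of the members, 48.7% of 78 held the run, against 22.5% of all 32851 starts in the same 30 bases. Of the 64 tested members with a start in that table, 36 had the run at one of their starts. Of these 36, 12 were higher in hypoxia with vehicle and 26 in hypoxia with ABT-263, with median log2 fold changes of 0.27 and 0.37. Of the 28 with no run in the window of any RefSeq start, 8 and 17 were higher, with medians of 0.22 and 0.26. In the 300 bases around the start, searched on both strands, CTTCCGG (the core bound by ETS family factors) was found at 34.6% of member starts and 8.86% of all starts. GGGCGG (the SP1 core) was found at 60.3% against 35.7%, AAGATGGC (the YY1 core) at 10.3% against 2.75%, and TATAAA (the TATA box) at 8.97% against 13.6%. The run can overlap the first 5 letters of CTTCCGG. These are matches of letters and show no binding.

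The 86 genes together took 3.59%, 4.15% and 4.86% of all counts (lowest, median and highest) in the normoxia vehicle libraries. In normoxia with ABT-263 the values were 3.32%, 3.66% and 4.11%. In hypoxia they were 4.17%, 4.86% and 5.75% with vehicle and 3.74%, 4.72% and 5.72% with ABT-263. The hypoxia libraries lay higher on the whole, and each pair of groups overlapped except normoxia ABT-263 and hypoxia vehicle, whose ranges did not meet.

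**Figure D1:**
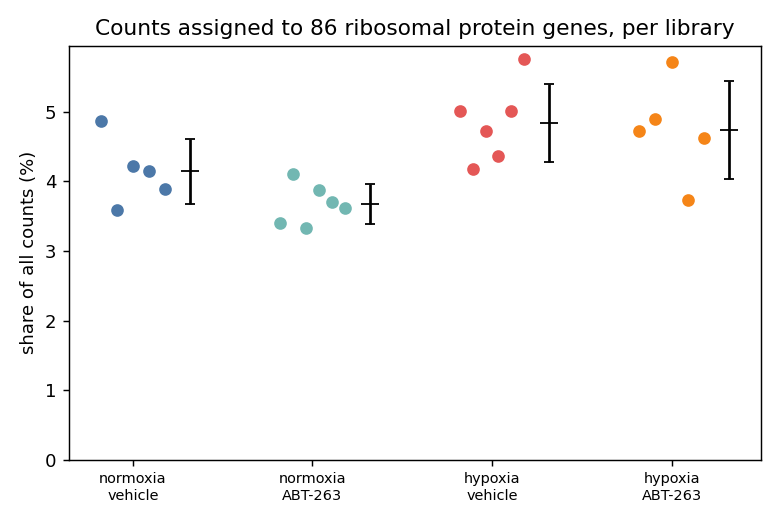
Share of all counts assigned to the 86 ribosomal protein genes (y axis, percent, from 0) in each of the 22 libraries (points) by group, with the mean and SD as a bar. The hypoxia vehicle libraries run from 4.17% to 5.75% and the normoxia ABT-263 libraries from 3.32% to 4.11%.

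Members went up and down together from library to library within a group. In normoxia vehicle replicate 1, 83 of the 84 tested members lay above their own group's mean, and in replicate 2 only 3 did. In hypoxia vehicle replicate 6 the number was 83 and in replicate 2 it was 3. In hypoxia with ABT-263, 74 members lay above the mean in replicate 3 and 4 in replicate 4. In normoxia with ABT-263 the numbers ran from 2 in replicate 1 to 78 in replicate 5. Over all tested genes, 45.8% to 54.4% lay above the group mean in any library. The members of one library are thus not independent of each other, and a count of members is no count of replicates. The labels name no batch, and what these libraries share was not tested.

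**Figure D2:**
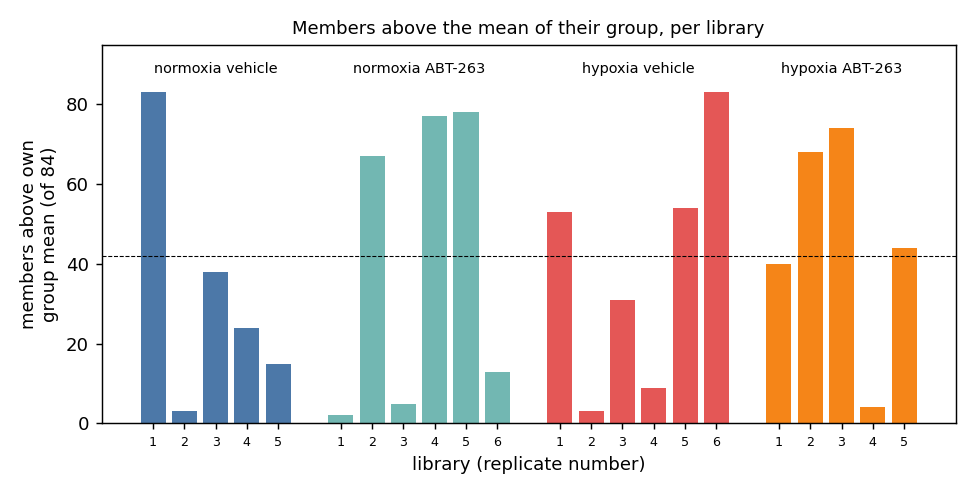
Number of the 84 tested members (y axis) whose level lay above the mean of the library's own group, for each library (bars, replicate number on the x axis), with the dashed line at 42. Normoxia vehicle replicate 1 and hypoxia vehicle replicate 6 reach 83, and replicate 2 of each of these groups reaches 3.

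Levels between genes were compared per kilobase of annotated transcript in normoxia vehicle libraries. The highest were the small-subunit proteins Rps12 (2664 ± 496 CPM per kilobase, SD, n = 5) and Rps27 (2445 ± 474), the stalk protein Rplp1 (2218 ± 348), Rps15 (1934 ± 322) and Rpl17 (1699 ± 338), a large-subunit protein near the exit of the peptide tunnel. The spreads of Rps12 and Rps27 overlap, as do those of Rps27 and Rplp1 and of Rps15 and Rpl17. The lowest were Rpl36al (85.5 ± 12.4), a copy of Rpl36a, the assembly factor Rpl7l1 (29.3 ± 1.92), Rps27rt (24.1 ± 7.60), an intronless copy of Rps27, Rps19bp1 (17.5 ± 2.50) and Rpl3l (1.57 ± 0.551), the muscle paralog of Rpl3. Rpl36al thus exceeded Rpl7l1 and Rpl3l by more than their spreads, while Rpl7l1 and Rps27rt lay closer to each other. Reads of many members cannot be placed with certainty, because processed pseudogenes and paralogs repeat their sequence. In 46 of the 84, most of the 50-base stretches of the transcript were not unique among annotated transcripts. The unique share was 1.40% for Rps27, 9.90% for Rps12 and 100% for Rpl3l and Rps19bp1, and the levels of Rps27, Rps27rt and Rps12 are uncertain for that reason. The order also depends on the annotated length. The transcripts used for Rps15a (5130 bases) and Rps20 (3706 bases) are far longer than the members' median of 767.5 bases, which lowers their levels per kilobase.

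The first comparison set hypoxia against normoxia in vehicle-treated mice. Ribosomal protein genes were higher in hypoxia in part: 26 of 84 rose and 0 fell by edgeR's quasi-likelihood test at a Benjamini-Hochberg adjusted p under 0.05, which is 30.95% of the members against 13.5% of all tested genes called higher and 12.8% called lower. At an unadjusted p under 0.05, 46 were higher and 0 lower, against 19.1% and 19% of all genes, and DESeq2 and limma-voom called 32 and 28 higher and 0 lower. The median member stood at a log2 fold change of 0.24 (1.19-fold), against −0.0038 over all genes, and members ranged from −0.14 to 0.61. The rises were small, and for no member did every hypoxia library lie above every normoxia library, or below it (over all genes, 7.02% and 6.96% did). Of the 43 large-subunit genes 15 rose (median 0.25), of the 31 small-subunit genes 9 (median 0.27), and of the 5 paralogs 2 (median 0.27). The 3 stalk genes had a median of 0.12.

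The number called higher moved with single libraries. It was 47 without normoxia vehicle replicate 1 and 7, 15, 10 and 9 without replicates 2, 3, 4 and 5. It was 17, 12 and 9 without hypoxia vehicle replicates 1, 5 and 6. Without the 3 libraries whose labels conflict it was 11, and with both replicates in which 83 members lay above the mean left out it was 32. In these fits 0 members were called lower, and 7 members were called higher in all 35 alternatives, among them Rpl10a, Rpl29, Rpl32, Rpl41, Rps27l and Rps7.

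Among large-subunit proteins Rpl32 (ENSMUSG00000057841; GRCm38 chr6:115805505-115808747, minus strand) showed the largest rise. It stood at 678, 452, 536.2, 530.9 and 488 CPM in normoxia vehicle replicates 1 to 5, and at 649.6, 734 and 930.4 CPM (lowest, median and highest) in the 6 hypoxia vehicle libraries. The groups overlapped only through normoxia replicate 1, and the log2 fold change was 0.48 ± 0.13 (SE; adjusted p = 0.00606, edgeR). Rpl41, the smallest ribosomal protein (ENSMUSG00000093674; GRCm38 chr10:128548114-128549305, minus strand), stood at 874, 532.4, 623, 575 and 567.5 CPM in normoxia and at 741, 867 and 1104 CPM in hypoxia. Here too only normoxia replicate 1 reached into the hypoxia range, above 3 of the 6 libraries, and the change was 0.47 ± 0.13 (adjusted p = 0.0104, edgeR). Rpl5, which carries the small 5S ribosomal RNA into the large subunit with Rpl11 and binds the p53 regulator MDM2, rose (0.35 ± 0.12, adjusted p = 0.0295, edgeR). Its partner Rpl11 did not pass (0.26 ± 0.12, adjusted p = 0.114, edgeR). Rpl3, which lies near the peptidyl transferase centre, rose by a log2 fold change of 0.29 ± 0.10, and Rpl10, which is added at the end of large-subunit assembly, was at 0.09 ± 0.08 and did not pass.

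Rpl10a (ENSMUSG00000037805; GRCm38 chr17:28328471-28331033, plus strand) rose with little spread, from 213, 153, 181, 171 and 174 CPM in normoxia to 195, 227 and 249 CPM in hypoxia. Again only normoxia replicate 1 overlapped the hypoxia libraries (0.32 ± 0.08, adjusted p = 0.0064, edgeR). Rpl29, a large-subunit protein also known as a heparin-binding protein, was at 84.3, 75.3, 66.4, 66.5 and 76.3 CPM in normoxia and 79.7, 89.9 and 93.9 CPM in hypoxia. Its groups overlapped through replicate 1, and it rose by 0.25 ± 0.07 (adjusted p = 0.0111, edgeR).

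Among small-subunit proteins Rps12 (ENSMUSG00000061983; GRCm38 chr10:23785183-23787275, minus strand) stood at 1687, 1067, 1408, 1275 and 1143 CPM in normoxia vehicle replicates 1 to 5 and at 1395, 1750 and 2582 CPM in hypoxia. In hypoxia 3 of the 6 libraries lay inside the normoxia range, and the change was 0.47 ± 0.16 (adjusted p = 0.0307, edgeR). It missed the threshold without normoxia vehicle replicates 2, 4 or 5, without hypoxia vehicle replicates 5 or 6, without the conflicting labels and with no filter on low counts (adjusted p from 0.0589 to 0.101). Rps25 (ENSMUSG00000009927; GRCm38 chr9:44407139-44410427, plus strand), a protein used by some viral and cellular messengers to start translation inside the message, stood at 409, 278, 343, 329 and 296 CPM in normoxia and 374, 444 and 540.6 CPM in hypoxia. Its groups overlapped through replicate 1, with a change of 0.42 ± 0.13 (adjusted p = 0.015, edgeR; 0.0515 without normoxia vehicle replicate 2). Rps6, the substrate of the S6 kinases, did not pass (0.23 ± 0.09, adjusted p = 0.0593, edgeR), nor did Rpsa, also known as the laminin receptor (0.08 ± 0.10), or Rps4x (0.00 ± 0.08).

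The 3 stalk proteins, which recruit elongation factors, did not pass in this comparison. Rplp0, the base of the stalk, was at 0.22 ± 0.09 (adjusted p = 0.0816, edgeR), Rplp1 at 0.12 ± 0.11 and Rplp2 at 0.05 ± 0.13. For all 3, normoxia vehicle replicate 1 was the highest of its group, and for Rplp1 and Rplp2 hypoxia vehicle replicate 6 was the highest of all 22 libraries. Rplp0 passed without normoxia vehicle replicate 1 (log2 fold change 0.31, adjusted p = 0.0121, edgeR), without that library and hypoxia vehicle replicate 6 (0.0294), by DESeq2 (0.0482) and with treatment read from the characteristics (0.0396). Rplp1 and Rplp2 passed in 0 of the 35 alternatives.

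Of the paralog pairs, Rps27l (ENSMUSG00000036781; GRCm38 chr9:66946086-66949516, plus strand) showed the largest rise of any member. Rps27l is a p53-induced paralog of Rps27. Its level was 85.9, 57.5, 69.6, 64.3 and 56.4 CPM in normoxia vehicle replicates 1 to 5 and 77.4, 106 and 131 CPM in hypoxia, so that only normoxia replicate 1 reached into the hypoxia range. The change was 0.61 ± 0.14 (1.52-fold; adjusted p = 0.00248, edgeR), while Rps27 itself was at 0.27 ± 0.13 and did not pass. Rpl22l1, the paralog of Rpl22, stood at 80.2, 52.6, 67.4, 62.6 and 53.5 CPM in normoxia and 67.5, 85.5 and 117 CPM in hypoxia, with overlap through 1 normoxia library. It rose (0.46 ± 0.15, adjusted p = 0.0236, edgeR), and it missed the threshold without normoxia vehicle replicates 2 or 5, without hypoxia vehicle replicate 6 and with no filter. Rpl22 did not pass (0.22 ± 0.11). That a paralog passed and its partner did not is no test of the difference between them. Rpl3l was at 1.20 to 3.15 CPM in normoxia and 1.12 to 2.77 CPM in hypoxia, against 540.3 to 708 CPM for Rpl3 in normoxia.

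**Figure D3:**
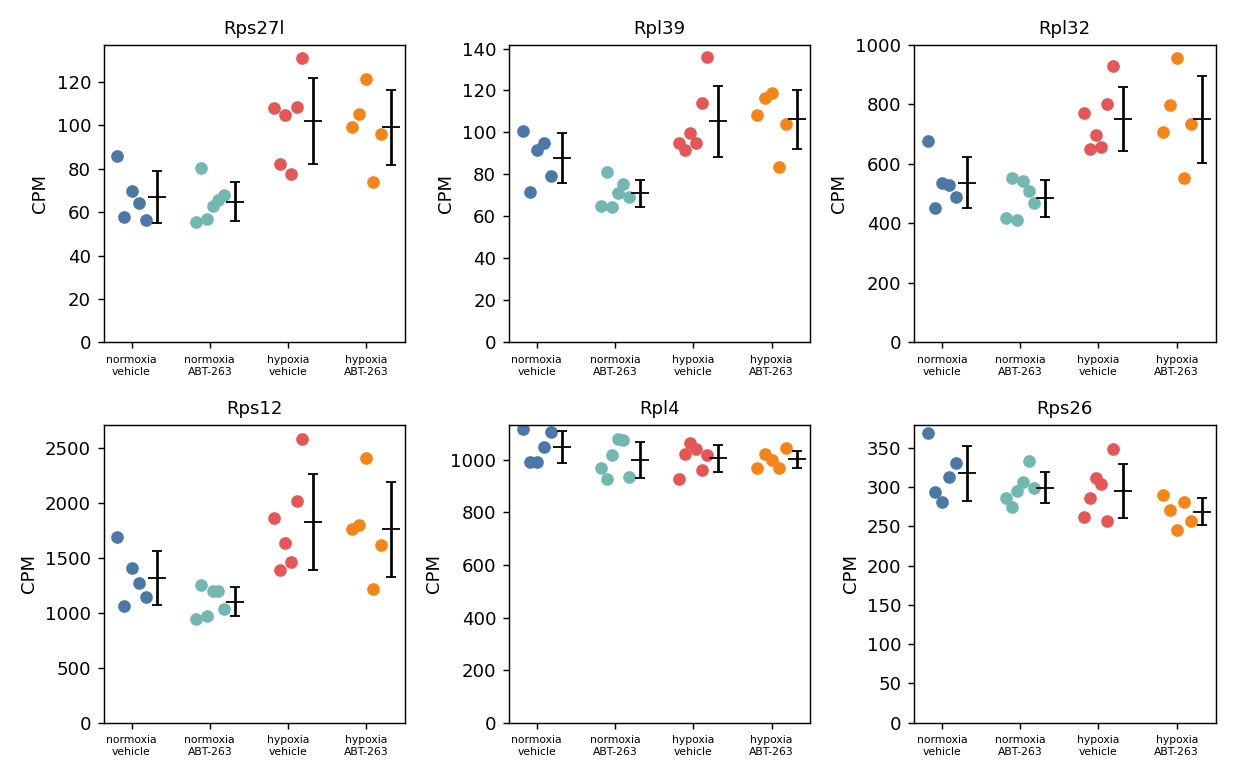
Level in CPM (y axes, from 0) of 6 members in each library (points) by group, with mean and SD as bars. Rps27l, Rpl39, Rpl32 and Rps12 lie higher in most hypoxia libraries, and Rpl4 and Rps26 do not.

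The second comparison set hypoxia against normoxia in mice given ABT-263. More members passed: 55 of 84 rose and 0 fell by edgeR (65.48%, against 17.9% of all genes called higher and 21.3% called lower), with a median log2 fold change of 0.35 (1.27-fold) against −0.02 over all genes. At an unadjusted p under 0.05, 61 were higher and 0 lower, against 21.7% and 25.8% of all genes. Of large-subunit genes 27 of 43 rose (median 0.36), of small-subunit genes 23 of 31 (median 0.40), of the stalk genes 1 of 3 and of the paralogs 3 of 5. Leaving out single libraries gave 43 to 64, and leaving out the conflicting labels 45. DESeq2 called 61 higher and limma-voom 52, both with 0 lower, and 41 members were called in all 35 alternatives.

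Members called here included Rpl39 (ENSMUSG00000079641; GRCm38 chrX:37082520-37085402, minus strand), a small protein of the exit tunnel. It stood at 64.3, 70.4 and 81.2 CPM (lowest, median and highest) in normoxia with ABT-263 and at 108, 116, 119, 83.5 and 104 CPM in hypoxia replicates 1 to 5. Every hypoxia library lay above every normoxia library, and the change was 0.58 ± 0.11 (adjusted p = 0.000144, edgeR), the smallest p of any member in this comparison. Such separation was found for 5 of 84 members (Rpl6, Rpl7a, Rpl15, Rpl39 and Rps15a) and for 8.47% of all genes, with 0 members and 9.09% of all genes separated the other way. Rps12 went from 946, 1118 and 1251 CPM to 1762, 1802, 2413, 1217 and 1618 CPM, with only replicate 4 of the hypoxia libraries inside the normoxia range (0.68 ± 0.16, adjusted p = 0.00156, edgeR). Rpl32 went from 410.5, 489 and 554 CPM to 708, 798, 958, 553 and 734 CPM, again with replicate 4 alone in the normoxia range (0.63 ± 0.12, adjusted p = 0.000312, edgeR). Rps27l rose by 0.61 ± 0.14, Rps25 by 0.60 ± 0.12, Rpl22l1 by 0.59 ± 0.15 and Rpl13a, a large-subunit protein that also belongs to a complex repressing inflammatory messengers, by 0.58 ± 0.15. Taking the 5 hypoxia libraries singly, 71 to 75 members lay above the normoxia vehicle mean in replicates 1, 2, 3 and 5, and 13 in replicate 4. That mean is from a group outside this comparison. By the same count the normoxia ABT-263 libraries had 2 to 39 members, hypoxia vehicle libraries 55 to 83 and the normoxia vehicle libraries themselves 3 to 83.

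Members that did not pass with vehicle and passed with ABT-263 numbered 31, among them Rpl11 (0.41 ± 0.12, adjusted p = 0.00879, edgeR), Rpl10 (0.22 ± 0.08), Rpl22 (0.42 ± 0.11), Rpl7 (0.37 ± 0.10), Rps6 (0.28 ± 0.09), Rps27 (0.32 ± 0.13) and Rplp0 (0.27 ± 0.09). Of the genes that match by name alone, Rpl7l1 rose (0.18 ± 0.06, adjusted p = 0.0267, edgeR) and Rps19bp1 was at 0.03 ± 0.10 and did not pass. The 2 hypoxia comparisons share no library. Of the 84 members, 24 (28.6%) were called higher in both, against 10.5% of all tested genes. The 24 are 92.31% of the members' vehicle calls and 43.64% of their ABT-263 calls. Over all genes, those called in both were 77.7% of the vehicle calls and 58.5% of the ABT-263 calls. Rpl24 and Rpl29 were called with vehicle alone, and 27 members were called in neither. Whether the response to hypoxia differed between treatments was tested directly, as the difference of the 2 contrasts. By edgeR 0 members passed, as did 0% of all genes, and DESeq2 and limma-voom also called 0. At an unadjusted p under 0.05, 1 member was higher and 0 lower, against 3.58% and 5.72% of all genes. It was Rpl39 (0.32 ± 0.15, unadjusted p = 0.0445; adjusted p = 0.525, edgeR). The median difference was 0.10, and it ran from 0.03 without hypoxia ABT-263 replicate 3 to 0.19 without hypoxia vehicle replicate 6. A larger count with ABT-263 is therefore not shown to be a larger response.

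**Figure D4:**
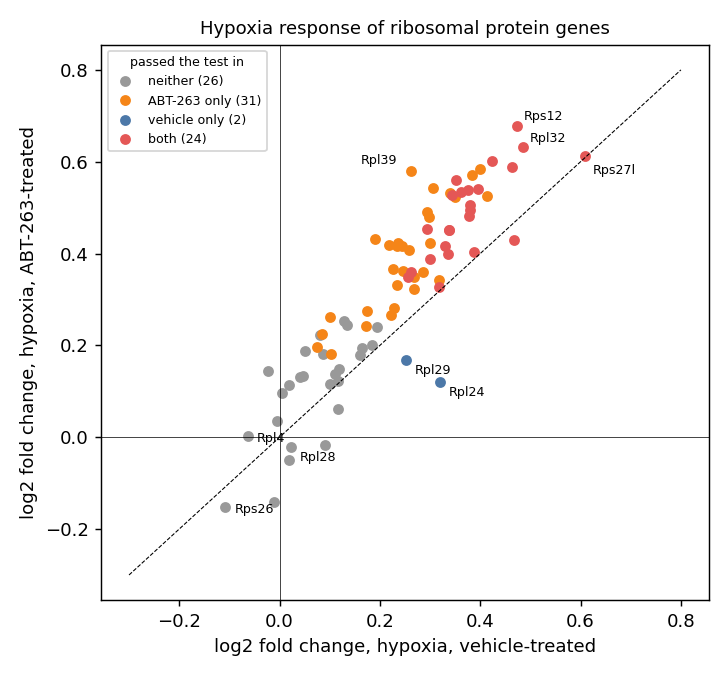
Log2 fold change in hypoxia with vehicle (x axis) against that with ABT-263 (y axis) for 83 tested members, coloured by the comparison in which they passed, with the line of equal change dashed. Most points lie right of 0 and above 0, and Rpl4, Rpl28 and Rps26 lie near 0; Rpl3l (−0.14 and −1.15, not called) is outside the axes.

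Several members were close to no change in both hypoxia comparisons. Rpl4, a large-subunit protein that lines the exit tunnel (ENSMUSG00000032399; GRCm38 chr9:64173375-64178666, plus strand), stood at 1118, 991, 990.2, 1049 and 1106 CPM in normoxia vehicle and at 929, 1020 and 1064 CPM in hypoxia vehicle libraries, and its change was −0.06 ± 0.07 with vehicle and 0.00 ± 0.07 with ABT-263. Rpl28 (299, 246, 234, 255 and 267 CPM against 242, 269 and 286 CPM) was at 0.02 ± 0.07 and −0.02 ± 0.07. Rps26, which contacts the messenger near the exit site, was at 369.6, 294, 281, 313 and 332 CPM and 257, 295 and 349 CPM, with −0.11 ± 0.08 and −0.15 ± 0.08, in the opposite direction to most members and short of the threshold (adjusted p = 0.358 and 0.149, edgeR). Normoxia vehicle replicate 1 was again the highest of its group for all 3. These genes, like Rpl24, Rpl10a and others outside the naming rule, were chosen after their values were seen.

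The remaining comparisons set ABT-263 against vehicle in each oxygen condition. In normoxia 0 members passed by edgeR (0.535% of all genes did), and DESeq2 and limma-voom called 0 as well. Of the 84, 81 had a negative log2 fold change, with a median of −0.14 against 0.01 over all genes, and the other three were Rpl3l, Rpl29 and Rpl7l1. Over all genes 53.68% were positive. The members' median was −0.08 without normoxia vehicle replicate 1 and −0.21 without normoxia vehicle replicate 2. At an unadjusted p under 0.05, 1 member was higher and 5 lower, against 7.45% and 5.57% of all genes. The lowest p was again that of Rpl39, at 101, 71.7, 91.8, 95.2 and 79.3 CPM with vehicle and 64.3, 70.4 and 81.2 CPM with ABT-263. Its groups overlapped (−0.30 ± 0.11, adjusted p = 0.191, edgeR). Rpl23a (−0.19 ± 0.08) and Rpl29 (0.16 ± 0.07), of opposite sign, came next. Since members vary together between libraries, the 81 signs are not independent.

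In hypoxia 0 members passed between ABT-263 and vehicle by edgeR (0.301% of all genes did), and DESeq2 and limma-voom called 0. By sign 68 of 84 were negative with a median of −0.04, against −0.0067 over all genes, of which 48.15% were positive. These signs were not stable, and 61 of the 84 members changed sign in at least 1 alternative. At an unadjusted p under 0.05, 1 was higher (Rpl7l1, 0.18 ± 0.06) and 3 lower, against 7.1% and 7.24% of all genes. Those lower included Rps27rt (−0.54 ± 0.22) and Rpl24 (−0.27 ± 0.12). Rpl7l1 stood at 76.0 to 89.0 CPM with vehicle and 83.7 to 102 CPM with ABT-263, with overlap (adjusted p = 0.219, edgeR). The members' median moved between −0.12, without hypoxia ABT-263 replicate 3, and 0.04, without hypoxia vehicle replicate 6. It was 0.03 without hypoxia ABT-263 replicate 4. Each ABT-263 comparison shares a group with each hypoxia comparison.

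**Figure D5:**
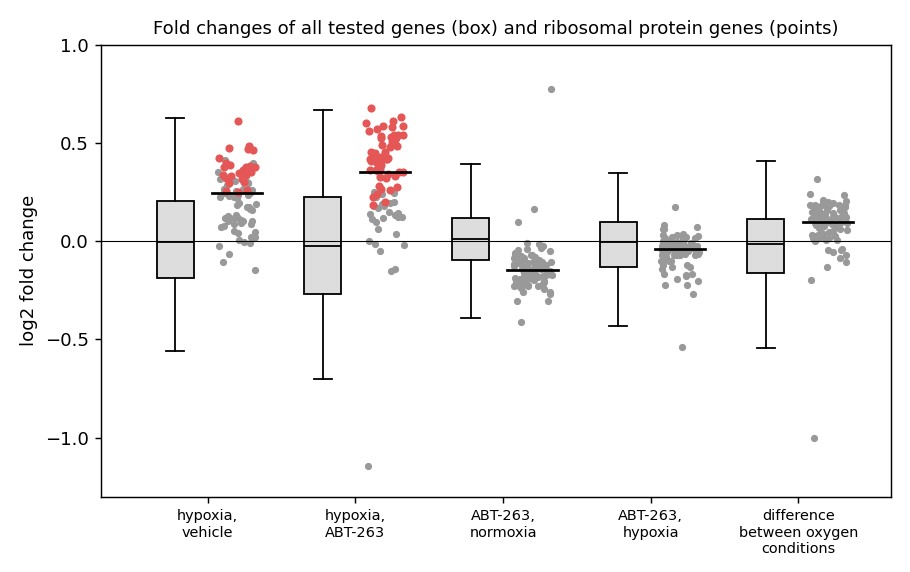
Log2 fold changes (y axis) in the 5 comparisons (x axis) for all 16638 tested genes (grey boxes with the median, quartiles and whiskers at the 5th and 95th percentile) and for the 84 members (points, red where the adjusted p was under 0.05, black line at the median). Red points appear only for the 2 hypoxia comparisons; the members' medians are 0.24, 0.35, −0.14, −0.04 and 0.10.

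Annotation of the members that passed and of the others is given as counts. The 24 called in both hypoxia comparisons had a median transcript length of 695 bases, and the 27 called in neither 835 bases. A small nucleolar RNA gene lay inside 30 of the 84 genes. Of these 30, 8 and 19 passed in hypoxia with vehicle and with ABT-263, and of the other 54, 18 and 36. Of the 46 members with mostly repeated 50-base stretches 15 and 33 passed, and of the other 38, 11 and 22.

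Other genes of translation were followed by list. Of 26 TOP messengers that encode no ribosomal protein, 11 (42.3%) rose in hypoxia with vehicle and 0 fell (median 0.23). With ABT-263 16 (61.5%) rose and 1 fell (median 0.33). Those that rose included the initiation factor subunits Eif3e (0.29 ± 0.06 and 0.48 ± 0.06) and Eif3h (0.37 ± 0.08 and 0.51 ± 0.08). The snoRNA host genes Snhg1 (0.60 ± 0.13 and 0.93 ± 0.13), Snhg6 (0.59 ± 0.14 and 0.97 ± 0.14) and Zfas1 (0.56 ± 0.14 and 0.85 ± 0.14) also rose. The host genes Gas5 (0.25 ± 0.10 and 0.51 ± 0.10) and Snhg5 (0.29 ± 0.13 and 0.62 ± 0.13) passed with ABT-263 only. Eif3k (0.06 ± 0.07 and 0.03 ± 0.07) passed in neither comparison. Rack1, a scaffold on the small subunit, rose in both (0.36 ± 0.11 and 0.45 ± 0.10), while Fau (0.23 ± 0.12 and 0.30 ± 0.12) did not pass. Of 78 mitochondrial ribosomal protein genes 23 (29.5%) rose and 0 fell with vehicle, and 29 (37.2%) rose and 4 fell with ABT-263. Over all genes 13.5% rose and 12.8% fell with vehicle, and 17.9% and 21.3% with ABT-263. Among the members 30.95% rose with vehicle, near the mitochondrial share, and 65.48% with ABT-263.

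The lists of ribosome assembly and of its control had genes called in both directions. Of 56 genes of ribosome biogenesis and RNA polymerase I, 7 rose and 6 fell with vehicle (12.5% and 10.7%, near the 13.5% and 12.8% of all genes). With ABT-263 9 rose and 14 fell (16.1% and 25%, beside 17.9% and 21.3% of all genes). Polr1a, the large subunit of RNA polymerase I, fell (−0.23 ± 0.08 and −0.54 ± 0.08). Nolc1 fell as well (−0.30 ± 0.07 and −0.33 ± 0.07), and Nip7, needed for assembly, rose (0.35 ± 0.09 and 0.50 ± 0.09). Of 49 translation factors 16 (32.7%) rose and 2 (4.08%) fell with vehicle, and 17 (34.7%) rose and 8 (16.3%) fell with ABT-263. The share that rose with vehicle was near that of the members (30.95%). This list overlaps the TOP list above, and Eif3e is counted in both. Of 42 genes of mTORC1 and MYC control 5 rose and 8 fell with vehicle (11.9% and 19%), and 6 rose and 13 fell with ABT-263 (14.3% and 31%). Those that rose included Lamtor3 (0.36 ± 0.07 and 0.41 ± 0.07) and Lamtor1 (0.37 ± 0.07 and 0.32 ± 0.07), parts of the complex that anchors mTORC1 at the lysosome. Rragc, a GTPase that recruits mTORC1 there, also rose (0.22 ± 0.06 and 0.35 ± 0.06), as did Mycn, a MYC family factor (1.41 ± 0.35 and 1.05 ± 0.37). Mycn was low and spread widely. With vehicle it lay at 1.90 to 2.81 CPM in normoxia and 2.60 to 10.5 CPM in hypoxia. With ABT-263 it lay at 0.81 to 3.12 and 1.56 to 6.20 CPM, and the ranges overlapped in both comparisons. Larp1, which binds TOP messengers, fell (−0.28 ± 0.07 and −0.54 ± 0.08), as did Deptor, an mTOR inhibitor (−0.49 ± 0.10 and −0.63 ± 0.10). For ABT-263 against vehicle, edgeR called 0 genes of these lists in either oxygen condition.

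Marker genes of lung cell types also changed in these comparisons. In hypoxia with vehicle 19 of 19 B cell genes fell, and their mean level was 4.44 to 5.18 log2 CPM in normoxia and 3.75 to 4.13 in hypoxia. T cell genes fell in 14 of 19 cases (3.04 to 3.54 against 2.51 to 2.77) and NK and cytotoxic genes in 11 of 16 (2.65 to 3.21 against 1.75 to 2.49). Of 14 erythroid genes 11 rose (5.05 to 5.16 against 5.67 to 6.16), while Klf1, Rhag, Rhd and Car1 had at most 11 counts in any library, 0 in some, and were not tested. Haemoglobin genes took 0.473% ± 0.0602 of counts in normoxia (SD, n = 5) and 1.15% ± 0.130 in hypoxia (SD, n = 6). Of 15 alveolar macrophage genes 8 rose and 1 fell (4.51 to 4.98 against 5.07 to 5.37), and of 14 fibroblast and mural genes 5 rose (6.26 to 6.66 against 6.80 to 6.92). These ranges do not overlap for any of the 6 lists. The endothelial ranges did not overlap either (7.690 to 7.981 in normoxia against 7.383 to 7.687 in hypoxia). Of the other lists, 3 endothelial genes rose and 7 fell of 15, 0 and 5 of 11 alveolar type 2 genes, 1 and 3 of 11 neutrophil genes, 1 and 8 of 14 platelet genes and 0 and 1 of 30 cell cycle genes. Over all genes 13.5% rose and 12.8% fell in this comparison. Endothelial genes had 20% and 46.7%, alveolar type 2 genes 0% and 45.5%, and neutrophil genes 9.09% and 27.3%. Platelet genes had 7.14% and 57.1%, and cell cycle genes 0% and 3.33%.

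In hypoxia with ABT-263, 18 of 19 B cell genes fell (4.01 to 4.42 in normoxia against 3.08 to 3.37), 7 of 19 T cell genes and 9 of 16 NK genes. Of erythroid genes 13 rose and 1 fell, of alveolar macrophage genes 9 and 2, and of fibroblast and mural genes 6 and 1. Of 14 platelet genes 1 rose and 12 fell (median −1.35), and of 11 alveolar type 2 genes 0 and 5. Of 15 endothelial genes 3 rose and 4 fell, of 11 neutrophil genes 1 and 4, and of 30 cell cycle genes 0 and 1. Over all genes 17.9% rose and 21.3% fell, while 36.8% of T cell genes and 56.2% of NK genes fell. With ABT-263 against vehicle, 10 B cell, 7 T cell and 4 NK genes fell and 1 platelet gene rose in normoxia. In hypoxia 10 B cell, 0 T cell and 1 NK genes fell. Of all genes 0.535% were called in normoxia and 0.301% in hypoxia. The part of these shifts in the ribosomal protein results was not tested.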

How the data were processed

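The authors deposited expected counts per gene, with Trimmomatic, STAR, RSEM and GRCm38 named in the submitters' processing notes without versions. RSEM divides reads that fit several genes, which makes near-identical copies uncertain. The 22 libraries were grouped by title, and replicate numbers follow sample order and pair nothing. Each of 50 same-group pairs differed beyond counting error (chi-square per gene 5.35 to 40.9). Counts were rounded, filtered (edgeR filterByExpr, minimum count 10), scaled by TMM and fitted in 1 model of 4 groups with edgeR 4.0.16 (robust quasi-likelihood F test, two-sided, Benjamini-Hochberg over 16638 genes, threshold 0.05; R 4.3.3, limma 3.58.1). Standard errors are the log2 fold change divided by the square root of F, with a median over members of 0.11 in each hypoxia comparison. List levels are means of log2 CPM (prior count 2). The fit was tested on simulated counts.

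Members and lists were chosen with earlier results of these data known. Members are named by rule: the 6 largest rises and falls per comparison, or the 3 smallest p values where none passed; the 5 highest and 5 lowest levels per length; and the paralog pairs, stalk genes, Rpl5, Rpl11, Rpsa, Rps6 and Rps19bp1 whatever their values. For other lists, up to 3 genes with the smallest p are eligible. Some single genes are not reported here. Per-length levels use the shortest well-supported principal transcript in GENCODE M21, all 86 members being in it; this choice replaced the longest one after its lengths were seen. Alternatives were DESeq2 1.42.0, limma-voom, other scalings and filters, the compared groups alone, other readings of the labels, pseudogene counts (-ps) added to their parents, and each library left out. Leaving out normoxia vehicle replicate 1 with hypoxia vehicle replicate 6 was added after seeing the data. Figures were drawn with matplotlib 3.10.9.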

Additional observations from a re-analysis of the deposited data

Results flagged for a closer look

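Dixon's criterion was applied within groups of 5 or 6 libraries to 136 sets of values, from 32 named members and summaries over all members. Since members vary together between libraries, the sets are not independent. For independent sets chance gives about 1 in 20, and 9 of the 136 were flagged, near that rate. In each of the 9 the highest library lay far from the rest. In normoxia vehicle replicate 1 this held for Rplp1 (1413 CPM, others 992.6 to 1063), Rplp0 (1181 CPM, others 859.7 to 927.4), Rps15 (1250 CPM, others 861.4 to 926.5), Rpl41 (873.7 CPM, others 532.4 to 623.1) and Rpl10 (457.6 CPM, others 371.2 to 394.8). In hypoxia vehicle replicate 6 it held for Rplp2 (1075 CPM, others 601.9 to 719.4), Rps15 (1332 CPM, others 989.4 to 1106) and Rpl23a (294.1 CPM, others 219.3 to 242.6). Those 2 libraries are the ones in which 83 of 84 members lay above the group mean. The muscle paralog Rpl3l was at 15.22 CPM in normoxia ABT-263 replicate 2, against 1.151 to 2.002 CPM in the others. In the hypoxia ABT-263 libraries Rpl3l lay at 1.40 to 1.88 CPM, and its change of −1.15 between those groups was not called and was 0.18 with normoxia ABT-263 replicates 2 and 6 left out.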

How the results depend on the processing

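The number of members called in hypoxia with vehicle moved with the libraries: 26 in all, 11 without the conflicting labels, and from 7 (without normoxia vehicle replicate 2) to 47 (without normoxia vehicle replicate 1) with each library left out in turn. Other alternatives gave 18 to 36, with 32 by DESeq2, 28 by limma-voom and 36 with treatment read from the characteristics. In hypoxia with ABT-263 it was 55, from 43 to 64 with each library left out and from 45 to 61 otherwise. In both ABT-263 comparisons and in the difference between oxygen conditions it was 0 in every alternative run. In the hypoxia comparisons 0 of the called members changed sign in any alternative. Among all 84, 12 with vehicle and 8 with ABT-263 did so in at least 1, among them Rplp2 with vehicle (0.05, and −0.08 without hypoxia vehicle replicate 6). With each library left out, the members' median ran from 0.18 to 0.31 with vehicle and from 0.27 to 0.44 with ABT-263. For ABT-263 against vehicle in hypoxia it turned positive in 2 alternatives (0.04 without hypoxia vehicle replicate 6 and 0.03 without hypoxia ABT-263 replicate 4). In that comparison 61 of the 84 members changed sign in at least 1 alternative, and 14 did in the same comparison in normoxia. Rps12 and Rpl22l1 lost their call in hypoxia with vehicle with no filter on low counts (adjusted p = 0.0696 and 0.0677, edgeR). No paired analysis was possible because replicate numbers follow sample order only. The fit of the compared groups alone gives no difference between oxygen conditions and was not run for it. Depth limits the lowest members, Rpl3l, Rps27rt, Rpl39l and Rpl10l.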
